A study of Mus musculus with 6 samples.

Results

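The matrilin genes Matn1 to Matn4, the thrombospondin family gene Comp and the cartilage genes Cnmd, Ucma and Snorc were followed in mouse nasal septum cartilage. These 8 genes were chosen by symbol and matched by Ensembl identifier among the 38924 genes of each count table. Anterior nasal septum cartilage was laser captured from frozen head sections of C57BL/6 embryos at embryonic day 14.5, and 3 Apert and 3 WT libraries were sequenced. The labels do not say whether the libraries of a genotype came from separate embryos, so p-values measure only the spread between these libraries. Apert animals are labelled Fgfr2+/S252W; EIIA-Cre: they carry 1 mutant allele of the fibroblast growth factor receptor gene Fgfr2, a model of the human craniosynostosis disorder Apert syndrome, together with a Cre transgene driven by the adenoviral EIIA promoter, which acts in the early embryo, so the allele is not limited to cartilage. WT animals carry the label WT alone, which does not say whether any held the Cre transgene. Library totals ran from 6760510 to 10527915 counts in Apert and from 8631181 to 10834744 counts in WT, and the mitochondrial genome took 34.3% to 40.4% of counts in Apert and 28.8% to 30.2% in WT. Summed cartilage defining markers (Col2a1, Acan, Sox9, Col9a1, Hapln1 and Col11a1) ran from 33031 to 35407 CPM (counts per 1000000 of the TMM-scaled library total) in Apert and from 31012 to 41120 CPM in WT. Most of this sum is Col2a1, Col11a1 and Hapln1. Of the 6 markers 3 were fitted higher in Apert and 3 lower, and edgeR and limma-voom called none. Acan and Sox9, both lower, had an unadjusted p below 0.05 in edgeR, and DESeq2 called 1 marker, Sox9.

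Matrilins are secreted oligomers with von Willebrand factor A domains, EGF-like repeats and a coiled coil that joins the subunits. They act as adaptors that tie collagen fibrils, collagen VI and aggrecan into one network, and the product of Comp, a pentamer, binds several of the same partners. Matn1 and Matn3 are known chiefly from cartilage, while Matn2 and Matn4 are also made in connective tissue, nerve and other organs. Mutations of human MATN3 and COMP cause multiple epiphyseal dysplasia, a disorder of the growth plates. Cnmd encodes chondromodulin, a membrane protein whose released part inhibits blood vessel growth. Ucma encodes a small secreted protein rich in gamma-carboxylated glutamate, and Snorc a small transmembrane chondroitin sulfate proteoglycan of cartilage.

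Promoter windows of 300 bases (250 before the start of transcription and 50 after it) are shown for Matn1, Matn3 and Cnmd, because Cnmd and Matn1 were the most abundant members and Matn3 had the largest fitted fold change of the tested members. The sequences are those of RefSeq on GRCm38.p6, which held windows for 5 of the 8 genes, and they lie at chr4:130944135-130944434 (plus strand) for Matn1, chr12:8947679-8947978 (plus strand) for Matn3 and chr14:79662134-79662433 (minus strand) for Cnmd. Capitals mark matches, on either strand, to GGGCGG, the core of the Sp1 site, or to CCAAT, the core of the NF-Y site.
Matn1: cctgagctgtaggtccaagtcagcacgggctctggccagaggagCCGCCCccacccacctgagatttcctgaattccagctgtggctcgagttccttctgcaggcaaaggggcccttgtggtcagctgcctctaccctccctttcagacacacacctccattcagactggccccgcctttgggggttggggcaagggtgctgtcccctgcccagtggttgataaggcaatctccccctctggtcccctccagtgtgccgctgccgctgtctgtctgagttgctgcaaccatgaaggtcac
Matn3: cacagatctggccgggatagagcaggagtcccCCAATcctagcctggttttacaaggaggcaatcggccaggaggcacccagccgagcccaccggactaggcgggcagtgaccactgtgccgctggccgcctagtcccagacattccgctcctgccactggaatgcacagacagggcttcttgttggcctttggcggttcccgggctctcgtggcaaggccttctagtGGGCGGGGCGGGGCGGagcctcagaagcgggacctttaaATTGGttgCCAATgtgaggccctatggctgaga
Cnmd: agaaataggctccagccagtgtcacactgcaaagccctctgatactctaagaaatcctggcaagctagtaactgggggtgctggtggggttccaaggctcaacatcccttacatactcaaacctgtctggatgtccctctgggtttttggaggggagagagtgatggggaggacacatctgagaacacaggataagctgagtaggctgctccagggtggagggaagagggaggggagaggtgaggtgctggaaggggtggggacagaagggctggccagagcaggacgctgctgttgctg
In the Matn3 window 3 copies of GGGCGG, each sharing 1 base with the next, lay between -22 and -7 from the start, and CCAAT matched at -218, 18 and 26. The Matn1 window held 1 match to GGGCGG and none to CCAAT, and the Cnmd window held neither. Over all 32851 RefSeq windows, 35.7% held GGGCGG and 37.4% held CCAAT. Neither ACAAT, a core of SOX sites that 31.0% of all windows held, nor TATAAA, which 13.6% held, occurred in these 3 windows on either strand. The full palindrome of nuclear factor I sites was in 0.0365% of all windows and in none of these 3. A match or its absence describes these letters only.

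Levels of different genes are compared per kilobase of exon, using the summed exon lengths of the count tables. Cnmd was the most abundant member, at 572 ± 56.1 CPM per kb in Apert and 689 ± 77.3 CPM per kb in WT (SD, n = 3 each), and stood at place 23 among 13333 tested genes on this scale. Matn1 followed at 187 ± 4.89 CPM per kb in Apert and 227 ± 44.9 CPM per kb in WT, at place 60. In all 6 libraries Cnmd lay above Matn1, and Matn1 above every other member. Matn3 was at 63.6 ± 13.2 CPM per kb in Apert and 35.3 ± 16.5 CPM per kb in WT, and Matn4 was at 31.1 ± 6.90 CPM per kb in Apert and 31.5 ± 2.22 CPM per kb in WT. The ranges of Matn3 and Matn4 overlapped, and Matn3 was the higher of the pair in 5 of 6 libraries. The exon length of Matn4 in the count tables is 5174 bases, against 2304 bases for its longest protein-coding transcript in GENCODE M21. With that length Matn4 averaged 70.3 CPM per kb over the 6 libraries and stood above Matn3, at 49.5 CPM per kb.

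The other 4 members were far weaker. Matn2 was at 10.1 ± 1.92 CPM per kb in Apert and 6.48 ± 1.28 CPM per kb in WT, and Ucma at 7.23 ± 2.63 CPM per kb in Apert and 5.44 ± 2.85 CPM per kb in WT. Comp was at 0.948 ± 0.539 CPM per kb in Apert and 1.23 ± 0.917 CPM per kb in WT, place 11179 of 13333. Snorc was at 0.988 ± 1.06 CPM per kb in Apert and 3.42 ± 2.32 CPM per kb in WT. Matn4 exceeded Matn2 in all 6 libraries, whereas the ranges of Matn2 and Ucma, of Ucma and Snorc, and of Snorc and Comp overlapped. Over all libraries the mean of Matn1 was 207 CPM per kb and that of Comp 1.09 CPM per kb.

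**Figure D1:**
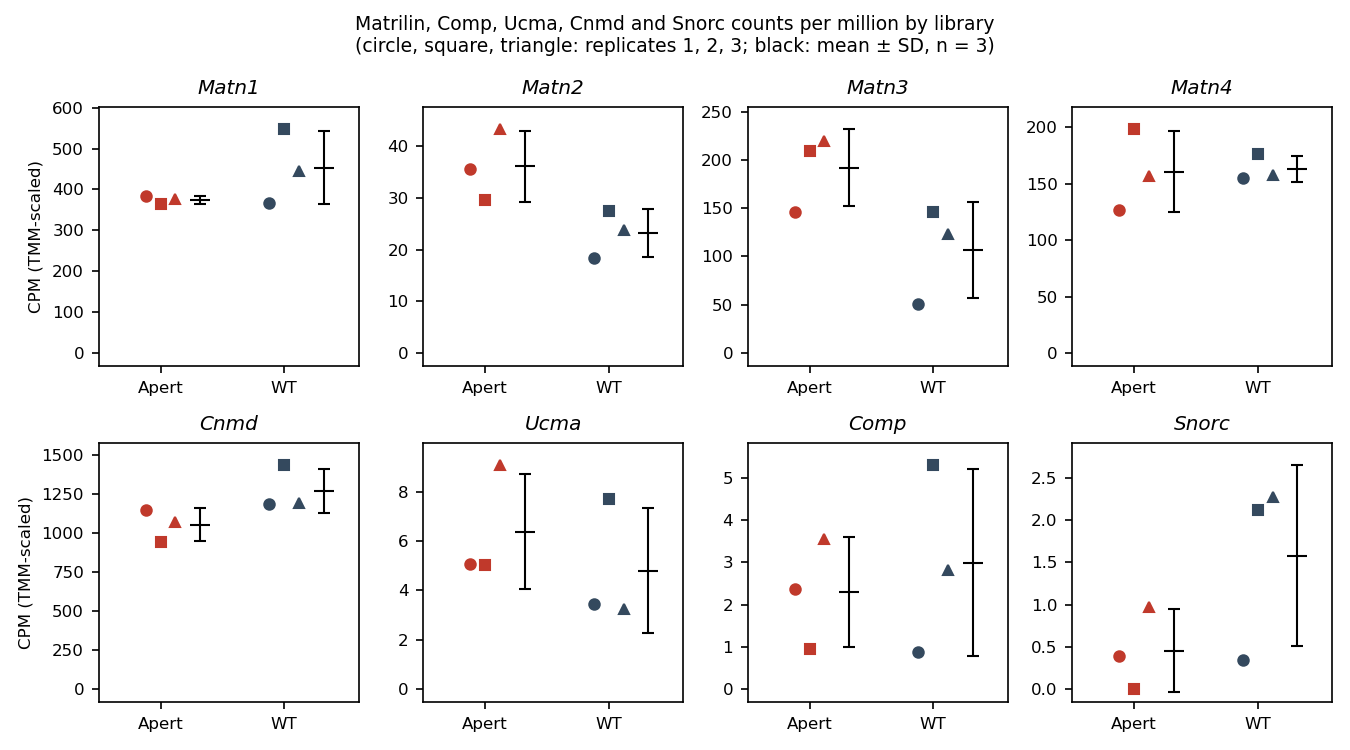
TMM-scaled CPM of the 8 genes in each library, Apert left of WT. Symbols mark replicates 1 to 3 and black bars the mean ± SD (n = 3); Matn2 and Matn3 lie higher in every Apert library than in every WT library, and Cnmd lower, while the other 5 genes overlap.

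The comparison of Apert with WT asks which of these transcripts differ between the genotypes. None of the 7 tested members passed the edgeR quasi-likelihood test, where 0.450% of all 13333 tested genes did, 0.398% with Apert higher and 0.0525% with Apert lower (adjusted p of the members from 0.197 to 0.978). The unadjusted p was below 0.05 for Matn2 and Matn3, 2 of 7 members, where 11.4% of all tested genes had such a p, and DESeq2 and limma-voom also called 0 members. DESeq2 gave no adjusted p for Comp and Ucma. The Apert and WT libraries did not overlap for Matn2, Matn3 and Cnmd, 3 of 7 members, where 16.6% of all tested genes did not overlap (8.92% with Apert higher and 7.70% with Apert lower). The median log2 fold change was -0.02 over the members and 0.01 over all tested genes. Snorc was too low for the expression filter and was not tested.

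Matn1, whose product links aggrecan and collagen II fibrils, lies on chromosome 4 from 130944385 to 130955475 (plus strand, mm10, as are all coordinates of the count tables). It was measured at 383, 364 and 378 CPM in Apert replicates 1 to 3 and at 368, 547 and 445 CPM in WT replicates 1 to 3. The 3 Apert libraries lay close together, and WT replicate 1 fell among them while the other WT libraries lay above. Its log2 fold change was -0.27 (standard error 0.15, 95% interval of this gene alone -0.58 to 0.04; edgeR, adjusted p = 0.507). With an offset for GC content it was -0.04.

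Matn3, the gene mutated in some families with multiple epiphyseal dysplasia, lies on chromosome 12 from 8947929 to 8972028 (plus strand), with the promoter printed above. It was measured at 146, 210 and 220 CPM in Apert replicates 1 to 3 and at 50.4, 146 and 123 CPM in WT replicates 1 to 3. WT replicate 1 held the lowest value by far, and Apert replicate 1, the lowest Apert library, was barely above WT replicate 2 (146.1 against 145.8 CPM). The fold change was 1.80, or 0.85 on the log2 scale (standard error 0.26, 95% interval 0.29 to 1.41), and did not pass (edgeR, adjusted p = 0.197). Without WT replicate 1 the log2 fold change was 0.51 (adjusted p = 0.456), and over all libraries left out in turn it ran from 0.51 to 1.15 with adjusted p from 0.0547 to 0.498. With no expression filter Matn3 was called (log2 fold change 0.82, adjusted p = 1.42e-04). In that fit the prior degrees of freedom of edgeR were infinite, so each gene was given the spread of the trend in place of its own. The coefficient of variation of Matn3 was 20.8% in Apert and 46.8% in WT.

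Matn2 and Matn4 are the matrilins of wider distribution. Matn2 (chromosome 15, 34306680 to 34436242, plus strand) was at 35.6, 29.5 and 43.3 CPM in Apert replicates 1 to 3 and at 18.4, 27.5 and 23.8 CPM in WT replicates 1 to 3. All Apert libraries were above all WT libraries, by a fold of 1.56 (log2 0.64, standard error 0.21, 95% interval 0.19 to 1.09), without passing the test (edgeR, adjusted p = 0.245). Its exons overlap those of 9430069I07Rik, so part of its count is uncertain. Matn4 (chromosome 2, 164389393 to 164405160, minus strand) was at 127, 198 and 157 CPM in Apert replicates 1 to 3 and at 155, 176 and 158 CPM in WT replicates 1 to 3. Apert held both the lowest and the highest library. The log2 fold change of Matn4 was -0.02 (standard error 0.16, 95% interval -0.36 to 0.31; edgeR, adjusted p = 0.978), and its sign changed between fits. The exons of Matn4 overlap those of Rbpjl, and the counts took no account of strand.

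The mix of the 4 matrilins in each library does not depend on how libraries are scaled to each other. It does depend on the exon lengths used. With the length of its longest protein-coding transcript Matn4 would take a larger share and the others smaller ones, while the ratio of Matn1 to Matn3 would stay the same. By level per kb, Matn3 made up 17.7%, 23.3% and 24.0% of the matrilin sum in Apert replicates 1 to 3 and 7.10%, 13.3% and 13.6% in WT replicates 1 to 3. The share of Matn1 was 69.8%, 61.1% and 62.1% in Apert replicates 1 to 3 and 78.0%, 75.2% and 74.1% in WT replicates 1 to 3. Neither share overlapped between the genotypes, nor did that of Matn2 (2.76% to 3.97% in Apert and 2.11% to 2.21% in WT), while that of Matn4 did. In CPM, Matn2 and Matn3 already did not overlap, as was so for 16.6% of all tested genes. How often such shares of a sum fail to overlap was not computed. The shares add up to the whole, so they are tied to one another and are not separate results. Matn1 exceeded Matn3 by 3.95, 2.62 and 2.59 times in Apert replicates 1 to 3 and by 11.0, 5.65 and 5.46 times in WT replicates 1 to 3. The matrilin sum itself was 292 ± 15.6 CPM per kb in Apert and 300 ± 63.9 CPM per kb in WT (SD, n = 3 each). This mix was examined after the values were seen and was given no test. Matn1 has a GC content of 56.2% and Matn3 of 44.9% in their longest transcripts, and with the GC offset their log2 fold changes were -0.04 and 0.74.

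**Figure D2:**
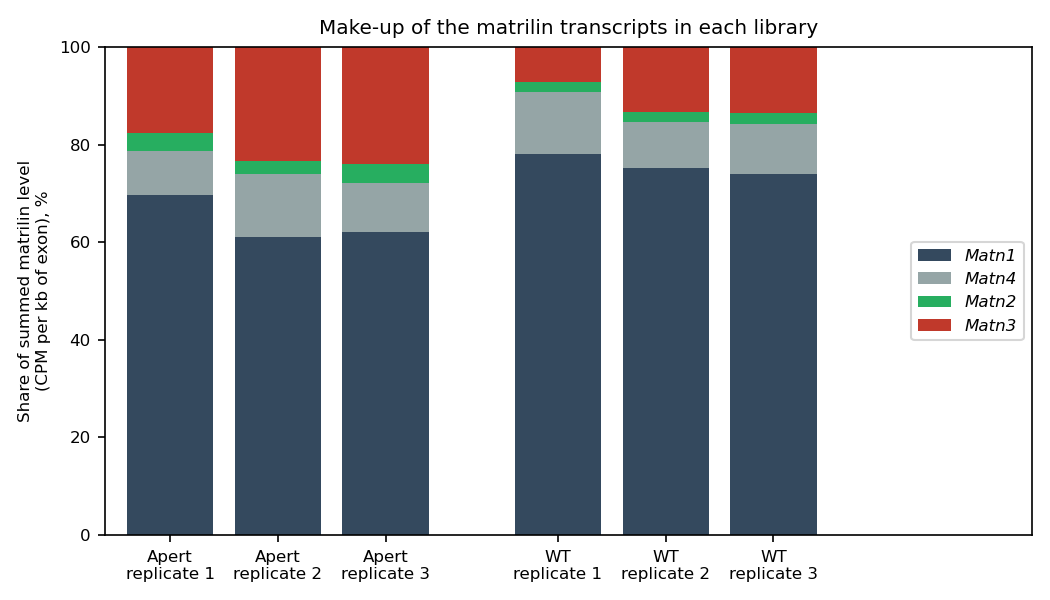
Share of each matrilin in the summed matrilin level (CPM per kb of exon, in percent) for each library, Apert bars left of WT bars. The Matn3 segment spans 17.7% to 24.0% in Apert and 7.10% to 13.6% in WT.

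Cnmd, the vessel inhibitor gene, lies on chromosome 14 from 79637690 to 79662170 (minus strand). It was at 1149, 944 and 1072 CPM in Apert replicates 1 to 3 and at 1186, 1435 and 1191 CPM in WT replicates 1 to 3. Every Apert library was below every WT library, with a small gap between Apert replicate 1 and WT replicate 1. The fold was 0.831, or -0.27 on the log2 scale (standard error 0.13, 95% interval -0.55 to 0.01), and did not pass (edgeR, adjusted p = 0.476). Its biological coefficient of variation in the edgeR fit was 0.132, below that of all but 3.08% of tested genes, while 99.7% of tested genes had a lower mean. The tendon gene Tnmd, a relative of Cnmd, had no count in any of the 6 libraries, where up to 0.486 CPM (3 counts, in the shallowest library) could go undetected.

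Ucma (chromosome 2, 4976122 to 4985748, plus strand), a gene of immature cartilage, was weak. It was at 5.06, 5.04 and 9.07 CPM in Apert replicates 1 to 3 and at 3.47, 7.71 and 3.25 CPM in WT replicates 1 to 3, with 1 high library in each genotype. The log2 fold change was 0.40 (standard error 0.42, 95% interval -0.49 to 1.28; edgeR, adjusted p = 0.771). Without Apert replicate 3 it was 0.06, and without WT replicate 2 it was 0.91.

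Comp (chromosome 8, 70373548 to 70382065, plus strand) had 24, 7 and 22 counts in Apert replicates 1 to 3 and 10, 55 and 26 counts in WT replicates 1 to 3. These are 2.38, 0.953 and 3.56 CPM in Apert and 0.867, 5.30 and 2.81 CPM in WT, so each genotype held a library below 1 CPM. Counting error is large here: the exact 95% Poisson interval was 0.383 to 1.96 CPM in Apert replicate 2 and 3.99 to 6.90 CPM in WT replicate 2, and it covers counting error only. The log2 fold change was -0.38 (standard error 0.65, 95% interval -1.74 to 0.97; edgeR, adjusted p = 0.872) and 0.32 without WT replicate 2. The spread of Comp exceeded that of 94.7% of tested genes, while 16.6% of tested genes had a lower mean.

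Snorc (chromosome 1, 87470264 to 87475459, plus strand) had 4, 0 and 6 counts in Apert replicates 1 to 3 and 4, 22 and 21 counts in WT replicates 1 to 3. WT replicate 1 thus resembled the Apert libraries, and the groups overlapped. The 0 in Apert replicate 2 allows up to 0.408 CPM (3 counts). Where a looser filter let Snorc in, a mean of at least 1 CPM, its log2 fold change was -1.81 (standard error 0.94; edgeR, adjusted p = 0.492), which did not pass. In fits that left out 1 library and let Snorc in it was -2.78 without Apert replicate 3, -1.76 without Apert replicate 1, -1.25 without Apert replicate 2 and -2.29 without WT replicate 1, none of them called. Without WT replicate 2 or WT replicate 3, the libraries with 22 and 21 counts, Snorc did not pass the filter. All of these log2 fold changes therefore rest on both of those libraries, and their common sign is no check on them.

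**Figure D3:**
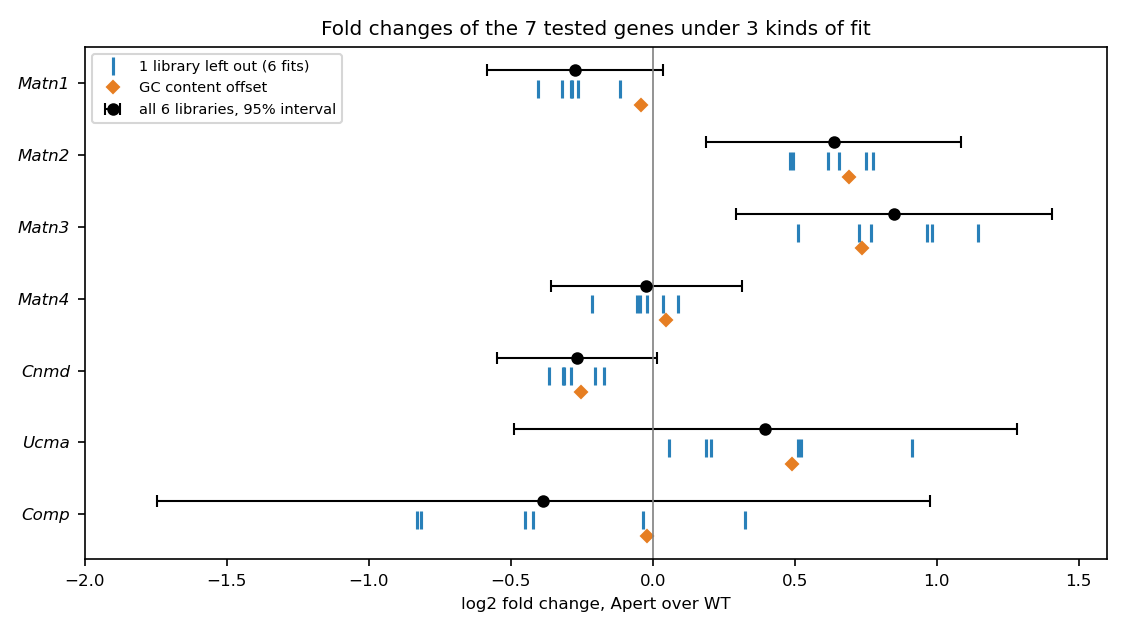
Log2 fold change, Apert over WT, of the 7 tested genes: black points with 95% intervals are from all 6 libraries, blue ticks from fits that leave out 1 library, and orange diamonds from the fit with a GC offset. The points, ticks and diamonds of Matn2, Matn3 and Ucma lie above 0, those of Matn1 and Cnmd below 0, and those of Comp and Matn4 on both sides; only the intervals of Matn2 and Matn3 leave out 0.

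**Figure D4:**
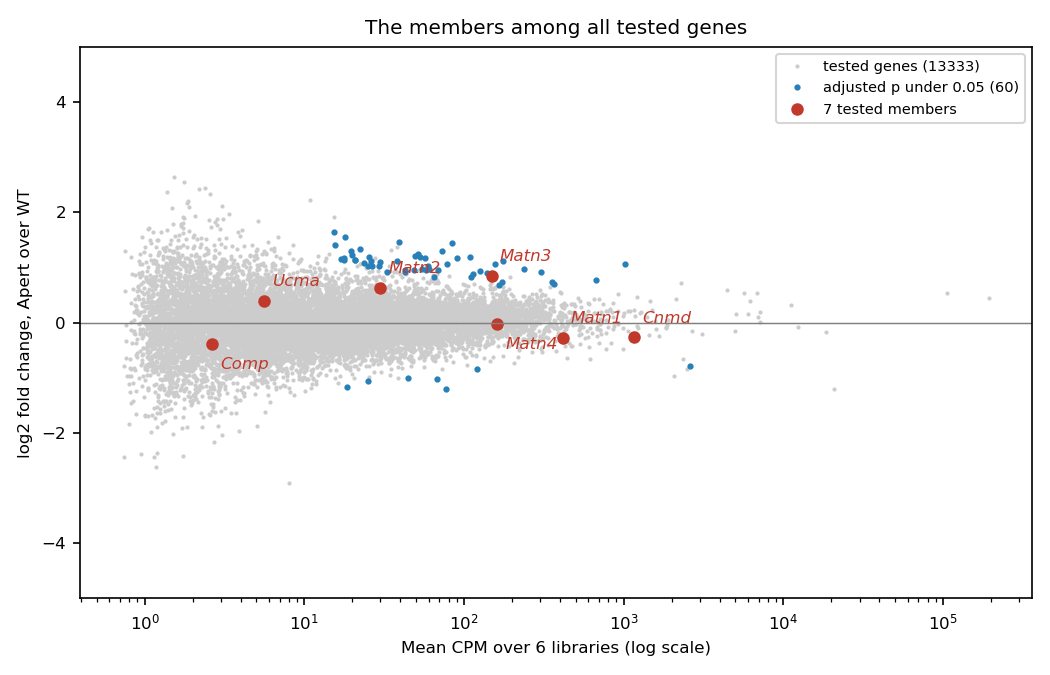
Log2 fold change, Apert over WT, against mean CPM (log axis) for 13333 tested genes in grey, the 60 called genes in blue and the 7 tested members in red. No red point is among the called genes; Matn3 has the highest log2 fold change of the members at 0.85.

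Libraries differed in more than genotype for several members. WT replicate 1 had the lowest value of the 6 libraries for Matn2, Matn3 and Comp, and the lowest of the WT libraries for Matn1, Matn4, Cnmd and Snorc too, but not for Ucma. Its share of mitochondrial counts was 29.9%, between those of WT replicate 2 (28.8%) and WT replicate 3 (30.2%). Apert replicate 3, with the highest mitochondrial share, held the highest Matn2, Matn3 and Ucma of all libraries. For each member the gene closest in pattern was found among 7144 tested genes of at least 10 CPM, by the root mean square difference of log2 CPM over the 6 libraries after centring each gene. Matn3 was closest to Fancd2 (difference 0.16, against an SD of 0.77 of Matn3 itself), Matn2 to Itgb3bp (0.10, SD 0.43), Matn1 to Evl (0.06, SD 0.23) and Cnmd to Eif4e3 (0.04, SD 0.20). Matn4 was closest to Tubgcp5 (0.05, SD 0.21), Ucma to Acly (0.18, SD 0.57) and Comp to Thsd4 (0.38, SD 0.94). These likenesses rest on 6 libraries that share the 2 genotypes.

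The matrix partners that matrilins and the Comp product bind were measured in full and none was called. All 17 listed genes were tested, 8 with positive and 9 with negative log2 fold changes, with a median of -0.17 beside 0.01 over all tested genes. By unadjusted p 5 were below 0.05, DESeq2 called 1 and limma-voom called 0. Chad, which encodes a leucine-rich cell-binding protein of cartilage, was at 105 ± 3.38 CPM in Apert and 162 ± 22.2 CPM in WT (edgeR, adjusted p = 0.0695). It was called by DESeq2 (adjusted p = 0.00385), with library totals alone (0.0284) and without Apert replicate 1 (0.0473). With the GC offset its log2 fold change was -0.39, against -0.63 without it (adjusted p = 0.42), and leaving out any of the other 5 libraries gave adjusted p from 0.144 to 0.292. Bgn, a proteoglycan that bridges matrilins to collagen VI, was at 811 ± 78.0 CPM in Apert and 598 ± 105 CPM in WT (adjusted p = 0.234). Acan, the aggrecan gene, was at 831 ± 120 CPM in Apert and 1156 ± 372 CPM in WT (adjusted p = 0.322), and the collagen IX gene Col9a2 was at 140.1 ± 11.6 CPM in Apert and 189 ± 52.5 CPM in WT (SD, n = 3 each; adjusted p = 0.344). The log2 fold change of Acan was -0.18 once WT replicate 2 was left out, against -0.48 with all libraries, and that of Col9a2 was -0.18, against -0.43. With the GC offset Acan was at -0.28 and Col9a2 at -0.03.

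Among the thrombospondins, the family of Comp, none of 3 tested genes was called (median -0.30; 1 with an unadjusted p below 0.05, and none by DESeq2 or limma-voom). Thbs1 was at 211 ± 36.4 CPM in Apert and 260 ± 36.2 CPM in WT, and Thbs2 at 24.0 ± 17.8 CPM in Apert and 12.2 ± 3.08 CPM in WT. Apert replicate 3 held 44.6 CPM of Thbs2, against 14.3 and 13.2 CPM in Apert replicates 1 and 2, and without it the log2 fold change was 0.17, against 0.97 with all libraries. Thbs3 had a log2 fold change of -0.41 with exons that overlap Mtx1, and Thbs4 was below the filter. Of 7 factors studied at the Matn1 promoter none was called (median -0.10; 3 with an unadjusted p below 0.05, 1 called by DESeq2 and 0 by limma-voom). Sox9, the regulator of chondrocyte identity, was at 479 ± 139.9 CPM in Apert and 760 ± 109 CPM in WT (edgeR, adjusted p = 0.125), and was called by DESeq2 (adjusted p = 0.0269) and without Apert replicate 1 (adjusted p = 0.00858). Leaving out any of the other 5 libraries gave log2 fold changes of Sox9 from -0.78 to -0.48, none of them called, beside -0.67 with all libraries. The nuclear factor I genes Nfic, Nfib and Nfix had log2 fold changes of -0.53, 0.35 and -0.24, and the exons of Nfic and Nfix overlap other genes. With the GC offset Nfic was at -0.25, Nfib at 0.20 and Nfix at 0.02, where the sign of Nfix turned. Of the proteases that cut Comp and matrilins 4 of 6 were tested and none was called (median 0.44; 1 with an unadjusted p below 0.05, and none by DESeq2 or limma-voom). Adamts12 was at 0.55, Adamts5 at 1.05, Adamts4 at -0.84 and Adamts7 at 0.34 on the log2 scale (standard errors 0.22, 0.59, 0.68 and 0.51). Mean levels were low for Adamts5 (3.58 CPM in Apert and 1.75 CPM in WT) and Adamts4 (1.44 CPM in Apert and 2.55 CPM in WT). Adamts7 was low too (2.88 CPM in Apert and 2.28 CPM in WT). Without WT replicate 1 Adamts4 was at 0.12, and without WT replicate 3 Adamts5 was at 1.90.

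The summed markers of 3 lists of other tissues (tendon and perichondrium, glia and skeletal muscle) did not overlap between the genotypes. Those of endothelium, macrophages and epithelium overlapped. Of single tested genes 16.6% did not overlap, and no such share was computed for sums. The muscle sum was mostly Neb (28.9 ± 2.52 CPM in Apert and 20.3 ± 3.06 CPM in WT), while Myod1, Myog and Myf5 had no counts. These sums stand beside the values of Matn2, Matn3 and Cnmd. In bulk RNA, fewer cells of a type and less RNA per cell cannot be told apart. The 16 tendon and perichondrium markers summed to 4244 to 4915 CPM in Apert and 3290 to 3812 CPM in WT, without overlap, and of 13 tested 2 rose and 11 did not pass (median 0.22; 9 log2 fold changes were positive and 4 negative, those of Fmod, Scx, Col5a1 and Twist1, from -0.50 to -0.01). Those that rose were the fibrous collagen gene Col3a1 (452 ± 15.8 CPM in Apert and 279 ± 35.1 CPM in WT; edgeR, adjusted p = 0.0322) and the small proteoglycan gene Ogn (165 ± 31.3 CPM in Apert and 86.6 ± 21.8 CPM in WT; edgeR, adjusted p = 0.0363). Neither was called after a GC offset, with library totals alone, or without WT replicate 1, 2 or 3 or Apert replicate 2 or 3. In the fits with the GC offset and with 1 library left out, log2 fold changes ran from 0.59 to 0.80 for Col3a1, beside 0.69 in the fit of all libraries, and from 0.65 to 1.05 for Ogn, beside 0.93. Aspn and Prrx1 were at 1.37 and 0.53 on the log2 scale, and Tnmd and Dpt were at 0 in all libraries. The 9 Schwann and olfactory glia markers summed to 278 to 330 CPM in Apert and 366 to 440.0 CPM in WT, again without overlap. All 7 tested glia markers had negative log2 fold changes (median -0.38), none was called by edgeR, 2 had an unadjusted p below 0.05, and DESeq2 called 1 and limma-voom 0. Sox10 was at -0.61, Erbb3 at -0.35 and S100b at -0.38 on the log2 scale, and Foxd3 and Mal were at 0 in all libraries. With the GC offset Sox10 was at -0.25 (adjusted p = 0.771). The value of S100b was -0.21 without Apert replicate 2 and -0.61 without Apert replicate 3. The part of these tissues and of the mitochondrial share in the values of Matn2, Matn3 and Cnmd was not tested.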

How the data were processed

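RNA of laser-captured cartilage (15 ng per library) was amplified with NuGEN Ovation RNA-Seq System v2 and made into Nextera XT libraries, read as 100 bp pairs, per the labels' protocols. Such amplification can change the relative levels of transcripts. The authors deposited raw fragment counts per gene, made with featureCounts 1.4.4 over exons of Ensembl GRCm38 models without regard to strand, per the file headers. The submitters' processing notes also name cutadapt, STAR 2.5.2b and mm10. Each table lists 38924 genes, 37607 with a symbol; those without one held 0.168% to 0.205% of counts and stayed in the totals.

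Counts were fitted in R 4.3.3 with edgeR 4.0.16 (filterByExpr, 13333 genes, TMM scaling, glmQLFit, glmQLFTest, Benjamini-Hochberg adjustment at 0.05). CPM uses TMM-scaled totals, and log2 CPM a prior count of 2. Standard errors are the log2 fold change divided by the square root of F. The shallowest library had 6760510 counts, so 1 count was 0.148 CPM of its unscaled total. DESeq2 1.42.0 and limma 3.58.1 (voom) were alternatives, as were other scalings and filters, each library left out, the replicate number as a block, removal of mitochondrial genes and a GC offset (mgcv 1.9.3; GC known for 13192 tested genes). The fit was tested on simulated data in which all genes had the same biological coefficient of variation, 0.245. It recovered 40% of 100 genes changed 2-fold and 96% of 100 changed 3-fold, with 7 false calls. In this simulation a 2-fold change, larger than that fitted for any tested member, was often missed. Only genes above a minimum mean count were changed in it. The fitted coefficient of the tested members ran from 0.132 for Cnmd to 0.504 for Comp. The shares recovered therefore do not give the chance of a call for each member, and a member not called may still differ. No 2 libraries agreed within sampling noise (chi-square per degree of freedom at least 11.4), and no per-sample column was left unused. The members and lists were chosen with earlier results of these data known. Genes named beside the members were those called in a list plus up to 4 with the smallest p, and the closest gene in pattern for each member. The value of 1 gene named by this rule is not reported here. The other cell type lists (muscle, endothelium, macrophage, epithelium) and the hypertrophy list are given at the end.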

Additional observations from a re-analysis of the deposited data

How the results depend on the processing

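No member was called in 15 of 18 alternatives. Matn3 was the 1 member called with no filter (log2 fold change 0.82), with the replicate block (0.96, adjusted p = 0.00409) and with the GC offset and replicate block (0.85, adjusted p = 0.0237). Labels do not say that replicate numbers pair the samples, and same-numbered Apert and WT libraries correlated by 0.19, 0.02 and 0.09 in their deviations across genes, so the block is given here only. Apert replicates 1 and 3 correlated best with the WT library of their own number, and Apert replicate 2 with WT replicate 3 (0.07). Of all genes, 60 were called, against 247 with no filter, 223 by DESeq2, 172 with the block, 5 with the GC offset, 129 at an adjusted p of 0.10, and 0 to 229 with each library left out. The 0 is edgeR without WT replicate 3, where 1376 genes had an unadjusted p below 0.05. Scaling by library totals alone moved the median of all genes to -0.14, and the 60 calls (53 higher, 7 lower) became 41 (17 higher, 24 lower).

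The sign of Matn4 turned with the GC offset (0.046), with the GC offset and block (0.029), without WT replicate 2 (0.04) and without Apert replicate 1 (0.090), and that of Comp with the GC offset and block (0.14) and without WT replicate 2 (0.32). With libraries left out in turn Matn4 ran from -0.21 to 0.090 and Comp from -0.83 to 0.32. Matn1, Matn2, Ucma and Cnmd kept their sign in all 17 fits, from -0.43 to -0.03, 0.48 to 0.78, 0.06 to 0.91 and -0.42 to -0.17. With mitochondrial genes out of the totals the mean levels were 311 (Matn1), 12.4 (Matn2), 74.3 (Matn3), 47.0 (Matn4), 9.52 (Ucma) and 949 (Cnmd) CPM per kb. With the length of the longest protein-coding transcript, an alternative chosen after seeing the data, Matn4 was at 70.3 and Cnmd at 811 CPM per kb.

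For the lists, no filter called 2 cartilage markers, 2 matrix partners, 1 thrombospondin, 1 promoter factor, 5 tendon and 1 glia genes, and gave medians of 0.48 (hypertrophy), 1.32 (muscle) and 0.48 (endothelium). DESeq2 called 1 cartilage marker, 1 matrix partner, 1 promoter factor, 1 glia gene and 3 tendon genes. The block called 1 cartilage marker, 1 matrix partner, 1 promoter factor, 1 glia gene and 4 tendon genes. Lists share genes, so the same gene can be counted in more than 1 of them. Sox9 is both a cartilage marker and a promoter factor, and Col2a1 and Acan are both cartilage markers and matrix partners. The GC offset called 0 tendon genes, and with the block 1 cartilage marker, 1 promoter factor and 4 tendon genes (tendon median 0.38). Library totals called 1 matrix partner and 0 tendon genes, with medians of -0.23 (cartilage), -0.25 (promoter factors) and 0.062 (tendon). With libraries left out in turn, 0 to 1 cartilage markers, 0 to 1 matrix partners, 0 to 1 promoter factors and 0 to 5 tendon genes were called, and the tendon median ran from 0.19 to 0.54. The cause of these changes was not tested. Depth limits Comp and Snorc most, which had 53 and 10 counts over all Apert libraries and 91 and 47 over all WT libraries.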

Other observations

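Each matrilin gene has a syndecan gene, for a cell surface heparan sulfate proteoglycan, on the same chromosome in these count tables. The pairs were looked up after the values were seen. Sdc4 lies 19.1 kb from Matn4 on chromosome 2, Sdc3 lies 118 kb from Matn1 on chromosome 4, Sdc1 154 kb from Matn3 on chromosome 12 and Sdc2 1272 kb from Matn2 on chromosome 15. Sdc4 was lower in Apert (44.6 ± 4.99 CPM in Apert and 91.0 ± 24.3 CPM in WT, SD, n = 3 each; log2 fold change -1.02, edgeR, adjusted p = 0.0248), beside Matn4 at -0.02. This call depended on the libraries used. Without WT replicate 3 edgeR called 0 genes, and without Apert replicate 2 it called 0 genes lower in Apert. Sdc3 was at -0.64 beside Matn1 at -0.27, Sdc2 at 0.62 beside Matn2 at 0.64, and Sdc1 at -0.58 beside Matn3 at 0.85, and none of these passed. The differences between neighbours were not tested. Sdc3 shares exons with Gm12970 and Gm26716.

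Of 12 chondrocyte hypertrophy genes 6 were tested and none was called (median -0.13, 0 with an unadjusted p below 0.05, 0 by DESeq2 and by limma-voom). Mef2c was at -0.27, Panx3 at 0.55, Col10a1 (exons overlapping Nt5dc1) at -0.58 and Pth1r at -0.30 on the log2 scale, and Ibsp and Mmp13 had 0 counts in all libraries. Skeletal muscle markers summed to 33.5 to 39.1 CPM in Apert and 21.9 to 31.8 CPM in WT, without overlap (2 of 10 tested, Neb at 0.51 and Ttn at -0.22), with Myod1, Myog and Myf5 at 0 counts. Endothelial markers summed to 25.2 to 30.8 CPM in Apert and 17.5 to 33.7 CPM in WT (3 of 8 tested, Sox18 at -1.64, Eng at 0.50 and Pecam1 at -0.49). Macrophage markers summed to 4.26 to 13.1 CPM in Apert and 4.33 to 7.04 CPM in WT (2 of 6 tested, Cd68 at 0.88 and Csf1r at 0.17), and epithelial markers to 0.496 to 2.99 CPM in Apert and 1.08 to 1.64 CPM in WT (0 of 7 tested). In the muscle, endothelial and macrophage lists edgeR called none, 1 gene each had an unadjusted p below 0.05, and DESeq2 and limma-voom called none. Signs turned for Pth1r with the GC offset (0.02), for Ttn without WT replicate 3 (0.02) and for Csf1r without Apert replicate 3 (-0.56), without Apert replicate 2 (-0.06) and without WT replicate 3 (-0.37), and Sox18 was at -0.79 without WT replicate 2.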
